A study of Gallus gallus with 2 samples.

Results

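The JAK, STAT and SOCS genes were followed in DT40, a chicken B cell line, on 2 expression arrays. Members were the genes among 9 listed symbols (JAK1, JAK2, JAK3, TYK2, STAT3, STAT4, STAT5B, SOCS1 and SOCS3) whose RefSeq accession stood on a non-control probe, and 7 of the 9 had one, against 5382 genes named on the array in all. No probe was matched to TYK2 or to STAT5B. The table used for naming gives STAT5B as a synonym of STAT5A, which is therefore described among the relatives of the members. The 7 genes were read by 17 probes, 16 of which lay well above background on both arrays.

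The first culture expressed the mutant H2A.Z-R80C and the second expressed H2A.Z.1, each as a FLAG-tagged protein from a stable transgene. Both cultures were H2A.Z double knockouts and were grown without tetracycline, at 1 array per group. H2A.Z is a variant form of histone H2A found in a share of nucleosomes, and the study was concerned with a cancer-associated change in it. A stable line can descend from 1 cell. The labels do not say whether these were clones. In either case, with 1 culture and 1 array per group, differences between the lines, cultures, arrays and proteins cannot be told apart.

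Janus kinases (JAKs) sit on the inner tails of cytokine receptors and phosphorylate the receptor and the STAT proteins when a cytokine binds. Phosphorylated STATs form dimers, enter the nucleus and switch on target genes, among them SOCS genes, whose proteins bind receptors and JAKs and damp the signal. In mammals JAK3 pairs with the common gamma chain of the receptors for interleukins such as IL-2, IL-4, IL-7 and IL-21, and its loss impairs the development of lymphocytes.

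JAK3 was the single member that differed by 0.32 or more in log2 units, that is, by at least 25% upward or 20% downward, the threshold used throughout. Its signal was 1.45-fold higher in R80C cells, JAK2 was 1.20-fold lower, and the other 5 members differed by at most 1.08-fold. Signals are given as the scanner software's processed intensity. Differences are R80C minus H2A.Z.1 on a log2 scale, after each array was divided by its own 75th percentile (1055 for R80C and 1078 for H2A.Z.1). The members had been selected on these same signals and differences, JAK3 for its high difference, so their values are a description. Nothing was tested, since a lone array per group leaves no replicate error.

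The arrays were alike in quality: 71.5% of the R80C spots and 70.1% of the H2A.Z.1 spots lay well above background, and no spot was saturated. The median of all 4326 named genes measured on both arrays was 0.013 and their SD 0.20. Between probes of 1 gene the difference had a pooled SD of 0.094 over 2776 genes, and between spots of 1 probe 0.053 over 39 probes printed 5 times. The scanner software also gives an error for each spot. Carried over to the difference, it was between 0.20 and 0.22 (log2) at the 20 measured member spots, and 4 of these spots, 1 of JAK3 and 3 of JAK2, lay farther from 0 than their own error. This error hardly varied between the spots, so lying beyond it means little more than a difference larger than 0.20 to 0.22. All of these errors are technical and say nothing of the spread between cultures.

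Markers of B cells were checked first. Of 17 markers, 13 had a probe and all 13 were measured on both arrays, among them CD79B, a chain of the B cell receptor complex (31513 in R80C cells and 32104 in H2A.Z.1 cells), and PAX5, the transcription factor of B cell identity (194 in R80C cells and 201 in H2A.Z.1 cells). Their summed signal was 49013 in R80C cells and 52235 in H2A.Z.1 cells, most of it from CD79B. Probes share no scale and bright ones dominate a sum, so the sums are not compared between cell types. The T and NK cell list had 6 of 7 probed markers measured, summing to 23402 in R80C cells and 25172 in H2A.Z.1 cells. Nearly all of that sum came from CD3D, at 22797 in R80C cells and 24458 in H2A.Z.1 cells. CD4 was not well above background on either array. For myeloid cells 5 of 7 probed markers were measured (797 in R80C cells and 807 in H2A.Z.1 cells, CD14 and MARCO not well above background). For erythroid cells and thrombocytes 3 of 5 were (458 in R80C cells and 448 in H2A.Z.1 cells, HBE1 and TAL1 not well above background). Single genes differed in both directions, given here over wider gene lists of the same cell types that hold further genes beside these markers. Among B cell genes the survival factor gene TNFSF13B (BAFF) stood at -0.97 and JCHAIN, for the joining chain of polymeric immunoglobulins, at -0.48 (4746 in R80C cells and 6780 in H2A.Z.1 cells), and the most positive were the transcription factors EBF1 at 0.29 and IKZF1 at 0.14. Among T and NK cell genes CD3E, a T cell receptor chain, stood at -1.54 and CD44 at -0.47, with CD5 at 0.50 and CD8A at 0.084. The myeloid genes TIMD4 and CSF3R both stood at -0.54, and CEBPA and CEBPB at 0.53 and 0.24. Each rested on 1 measured probe of low signal, at most 24.4 in R80C cells and 36.4 in H2A.Z.1 cells. With normexp background correction and quantile normalization these 4 genes stood at -0.24, -0.13, 0.059 and 0.054, in the same order. That correction adds an offset of 50 to every signal, which draws the differences of dim genes toward 0. Erythroid and thrombocyte genes ran from -0.11 (HBE and HBA1) to 0.25 (HBBA), with ITGB3 at 0.073. HBE, HBA1 and HBBA were dim too, at most 20.2 in R80C cells and 17.9 in H2A.Z.1 cells. The part of such differences in the results below was not tested.

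**Figure D1:**
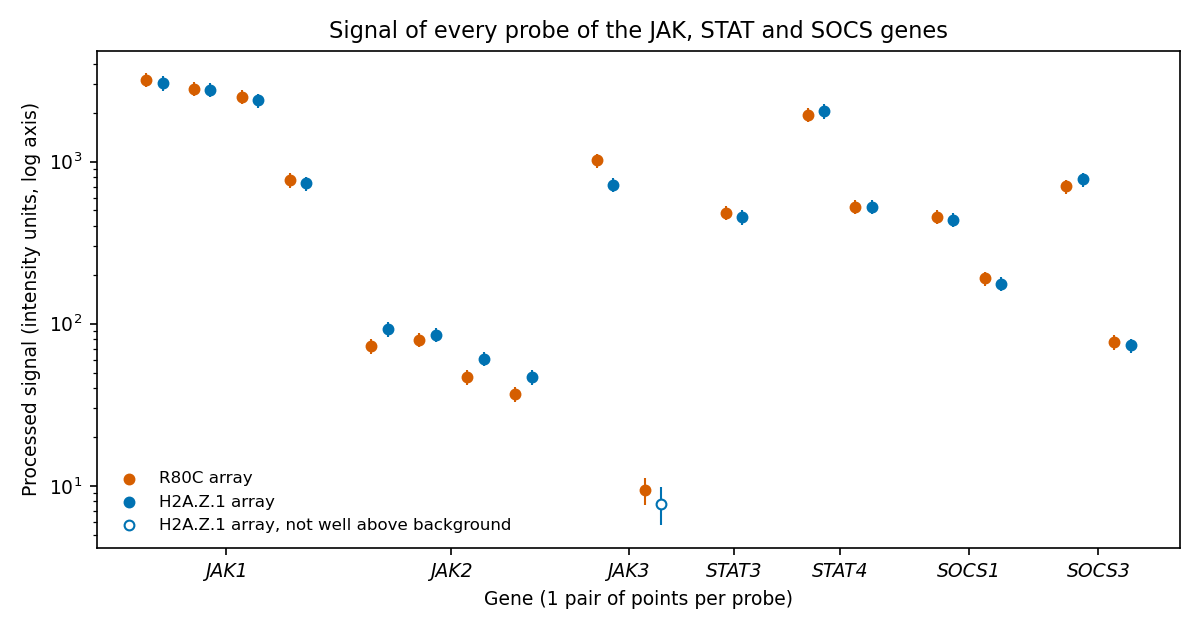
Processed signal (intensity units, log axis) of each of the 17 probes, R80C array in orange and H2A.Z.1 array in blue. Bars are the scanner software's error, and the open circle is a spot not well above background. The pairs separate visibly at 1 JAK3 probe (1018 for R80C and 718 for H2A.Z.1) and lie close together at the JAK1, STAT and SOCS probes. Height is not comparable between probes.

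Among the kinases, JAK3 was read by 2 probes of 1 spot each. At the first the signal was 1018 ± 102 in R80C cells and 718 ± 71.8 in H2A.Z.1 cells (± the software's error for the spot), a difference of 0.54, which is 2.62 times its error of 0.20. The raw brightness of these same spots, which is no separate reading, was 1099 over a local background of 28 on the R80C array. On the H2A.Z.1 array it was 800 over 28.5. The second probe was near the background, at 9.41 ± 1.82 in R80C cells, where it was flagged well above background, and 7.74 ± 2.03 in H2A.Z.1 cells, where it was not. Its raw spot brightness was 38 on both arrays, over a local background of 30 in R80C cells and 28 in H2A.Z.1 cells. Its processed difference of 0.31 was smaller than its error of 0.47 and carries no direction. The value of JAK3 therefore rests on 1 spot per array.

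Of all 30199 measured probes on the array, named or not, 291 (0.964%) had a difference at or above that of the JAK3 probe. In either direction, 3.06% lay at least as far from 0. Over genes, JAK3 stood at place 36 from the highest of 4326. At least 25% higher in R80C cells were 1 of the 7 members and 2.73% of all measured named genes, and at least 20% lower were 0 of the 7 and 4.44%. The 118 genes higher and 192 lower behind these shares became 151 and 153 when the arrays were scaled on their medians. JAK3 was among the members because of its high difference, so nothing is read from the count, its place or the shares of probes.

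JAK2, the kinase of receptors such as those for erythropoietin, growth hormone and interferon-gamma, lay on the other side of 0. Its 4 probes read 72.9, 46.6, 36.8 and 79.7 in R80C cells, against 92.7, 60.9, 47.0 and 85.6 in H2A.Z.1 cells, in the same order of probes. All 4 were lower in R80C cells. Their differences were -0.32, -0.36, -0.32 and -0.07, so the fourth probe lay within its error of 0.21 and each of the other 3 beyond its own. The mean was -0.27 (SD 0.13 between 4 probes), at place 256 from the lowest of 4326 genes. With normexp background correction of the raw median brightness (offset 50) and quantile normalization, a joint alternative called the normexp setting from here on, it was -0.10. The offset is added to every signal and so draws the differences of dim probes toward 0.

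JAK1, which pairs with JAK3 on common gamma chain receptors and also serves interferon and gp130 receptors, was close to equal on the arrays. Its 4 probes read 3191, 2829, 2512 and 769 in R80C cells, against 3053, 2781, 2387 and 736 in H2A.Z.1 cells. All 4 were slightly higher in R80C cells, with differences between 0.056 and 0.10, a mean of 0.087 and an SD of 0.022 between probes. Each lay within the error of its own spot.

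**Figure D2:**
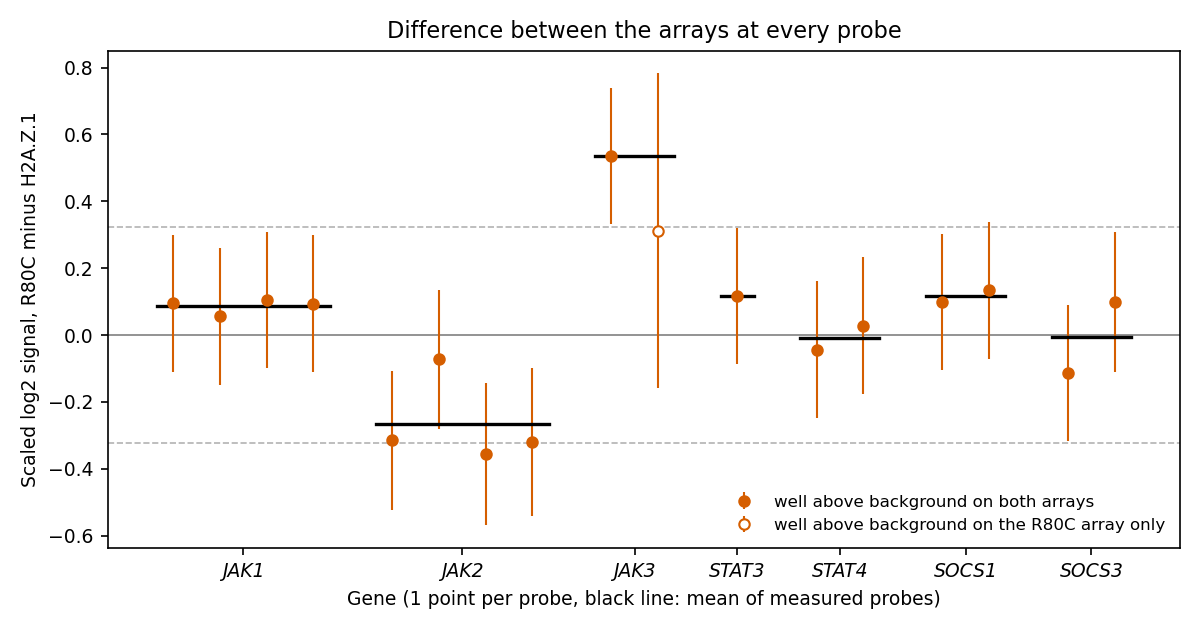
Difference of scaled log2 signal, R80C minus H2A.Z.1, at each probe, with the scanner software's error as bars and the mean of the measured probes of a gene as a black line. Dashed lines mark 25% higher and 20% lower. JAK3 stands at 0.54, the 4 JAK2 probes lie between -0.36 and -0.07, and the bars of the JAK1, STAT and SOCS probes all include 0.

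Set against its relatives, JAK3 differed by 0.45 more than JAK1 and by 0.80 more than JAK2, so the ratio of JAK3 to JAK2 signal was 1.74-fold higher in R80C cells and that of JAK3 to JAK1 1.36-fold higher. These ratios compare changes, not levels, because the signals of different probes share no scale. The median of the other 6 members was 0.040, and JAK3 stood 0.50 above it. With JAK3 included the median of the members was 0.087, against 0.013 over all measured named genes, with 4 members above 0 and 3 below (55.6% of all measured named genes lay above 0).

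Among the STAT transcription factors, STAT3, which acts below gp130 and IL-21 receptors, had 1 probe, at 483 in R80C cells and 455 in H2A.Z.1 cells. The difference of 0.12 was within the error of 0.20 for that spot. STAT4, the factor of IL-12 signalling in mammals, had 2 probes, which read 1950 and 526 in R80C cells and 2053 and 527 in H2A.Z.1 cells. Their differences of -0.043 and 0.028 had opposite signs, and the mean was -0.0077.

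The SOCS genes, the feedback inhibitors of the pathway, were as close. SOCS1, which inhibits JAK kinase activity directly, had a probe printed 5 times. Its spots averaged 459 ± 20.1 in R80C cells and 438 ± 18.0 in H2A.Z.1 cells (SD between 5 spots of 1 array). The difference at these spots ran from 0.043 to 0.13, with a mean of 0.098 and an SD of 0.036, so all 5 lay on the same side. A second SOCS1 probe read 190 in R80C cells and 177 in H2A.Z.1 cells, a difference of 0.13, and the gene's mean was 0.12. SOCS3, which binds gp130-type receptors together with the JAK, had probes of opposite sign. The first read 705 in R80C cells and 780 in H2A.Z.1 cells (-0.11), and the second 77.0 in R80C cells and 73.4 in H2A.Z.1 cells (0.10). Their mean was -0.0073, and neither probe differed beyond its error.

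The signs of JAK1, STAT3, SOCS1 and JAK3 were positive and that of JAK2 negative under all 11 ways of processing tried. STAT4 was positive under 2 of them and SOCS3 under 3, so these genes have no settled direction. All 11 start from the same 2 arrays, so a sign kept under each of them is not thereby settled either. Every spot of JAK1, STAT3 and SOCS1 lay within its own error. JAK3 ranged from 0.42 to 0.57 and was the only member past the threshold under each of the 11. Several of the 11 could hardly move it, since it has 1 measured probe and some only rescale the arrays. JAK2 ranged from -0.32 to -0.073.

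**Figure D3:**
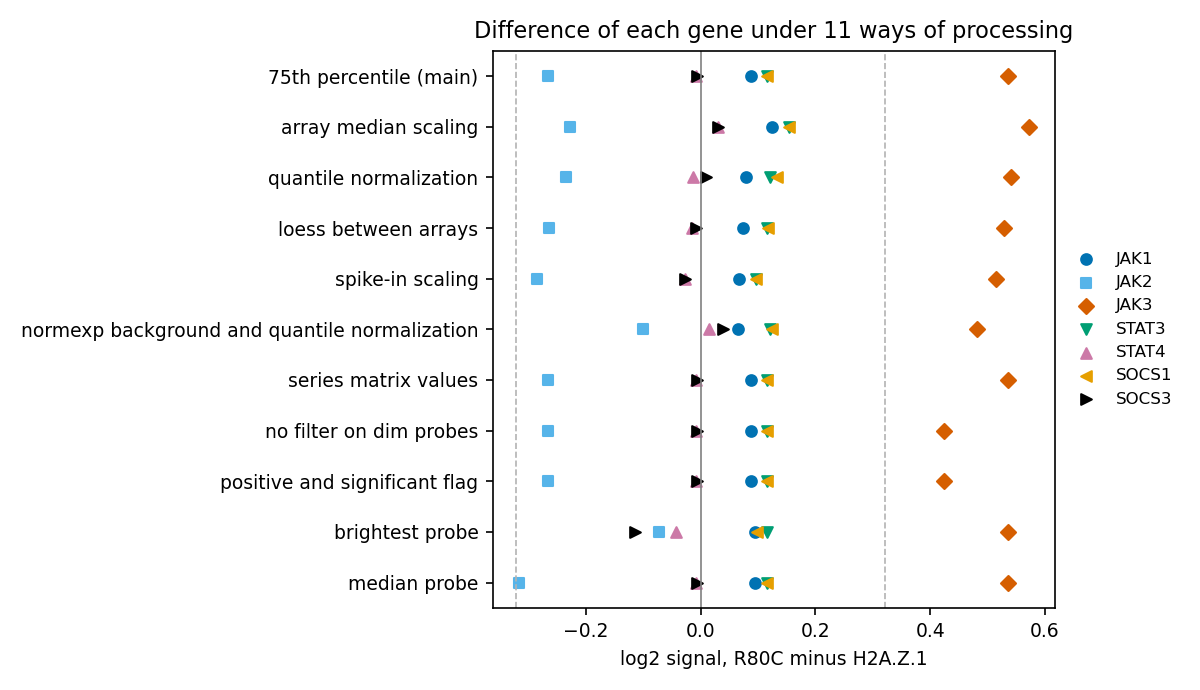
Difference of each of the 7 genes (log2, R80C minus H2A.Z.1, horizontal axis) under 11 ways of processing (rows), with dashed lines at 25% higher and 20% lower. JAK3 (orange diamonds) stays between 0.42 and 0.57, to the right of the dashed line, while STAT4 and SOCS3 lie on either side of 0.

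**Figure D4:**
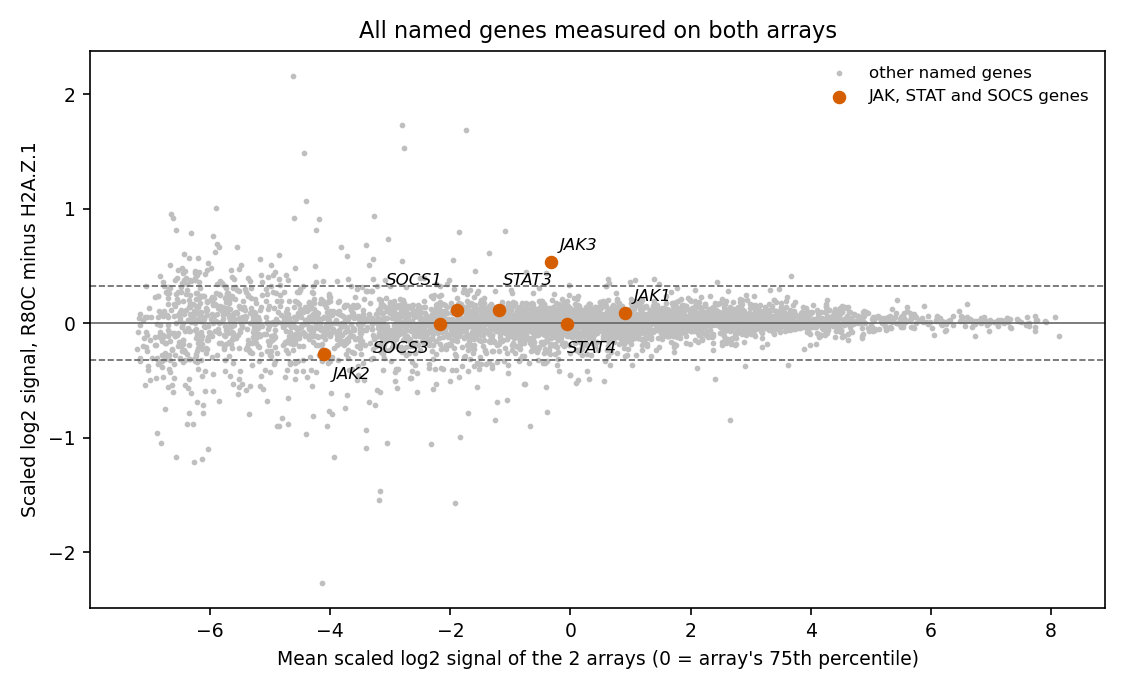
Difference (log2, R80C minus H2A.Z.1) against mean scaled log2 signal for the 4326 named genes measured on both arrays, with the 7 JAK, STAT and SOCS genes in orange and dashed lines at 25% higher and 20% lower. The cloud widens toward low signal, where JAK2 lies within it, and is narrow at the signal of JAK3, which lies at its upper edge.

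Over the 2 arrays, the named genes whose pair of scaled signals came nearest to that of JAK3 were TGFB2, a TGF-beta growth factor (distance 0.14 in log2 units, difference 0.44 over 3 probes), TMEM41B (0.20, difference 0.26), TEN1, a telomere protein (0.24, difference 0.20), CPA1 (0.28, difference 0.18) and the centrin gene CETN2 (0.28, difference 0.14). All 5 were thus higher in R80C cells by less than JAK3. For SOCS3 the nearest were BTBD9, TASP1, LOC426914, ZC3H3 and TERC, at distances between 0.030 and 0.045 and with differences between -0.012 and 0.055. With 2 arrays this likeness says only that the signals were similar.

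Of the further STATs, SOCS genes and inhibitors, 16 of 32 listed genes had a probe and 14 were measured, and none of the 14 passed the threshold, with 4 above 0, 10 below and a median of -0.052. Over all measured named genes 2.73% were higher and 4.44% lower by the same threshold, and 55.6% lay above 0, so a count of 0 in 14 is near the background. STAT5A, the factor of IL-2 and IL-7 signalling and the gene listed under the synonym STAT5B, read 1277, 919, 81.6 and 41.6 in R80C cells and 1361, 934, 82.3 and 38.9 in H2A.Z.1 cells. Its differences had both signs, from -0.062 to 0.13, with a mean of 0.023. SOCS6 and SOCS4 had the most negative values of the list, at -0.23 over 3 probes and -0.20 over 2, with every probe below 0. PTPN11, the phosphatase SHP2, had the most positive at 0.12, followed by the STAT inhibitor PIAS2 at 0.061. CISH, a SOCS family gene that STAT5 induces in mammals, was not well above background on either array. SOCS2 was near the background, with 1 of its 3 probes flagged in R80C cells alone (7.55 in R80C cells and 5.74 in H2A.Z.1 cells).

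Of the cytokine receptors that use JAKs, 23 of 43 had a probe and 15 were measured. At least 25% higher in R80C cells was 1 of the 15 (2.73% of all measured named genes) and at least 20% lower were 3 (4.44% of all), with a median of -0.0069. IL2RG, the common gamma chain that carries JAK3, read 17566 in R80C cells and 18311 in H2A.Z.1 cells, a difference of -0.029 over 2 probes. Of its partner chains, IL21R was at 34.1 in R80C cells and 27.1 in H2A.Z.1 cells (0.36, 1 measured probe), and IL2RA and IL7R were not well above background on either array. IFNGR2, the interferon-gamma receptor chain that carries JAK2, stood at 0.17 over 3 probes, higher in R80C cells at each. The 3 lower genes were CSF3R, the receptor of granulocyte colony-stimulating factor (10.2 in R80C cells and 15.2 in H2A.Z.1 cells, -0.54), IL10RB, a chain of the IL-10 receptor (28.5 in R80C cells and 39.1 in H2A.Z.1 cells, -0.43), and PRLR, the prolactin receptor (7.99 in R80C cells and 10.4 in H2A.Z.1 cells, -0.35), each on 1 measured probe. In the normexp setting none of the 15 receptors passed the threshold. CNTFR was flagged well above background in R80C cells alone (7.69 in R80C cells and 3.93 in H2A.Z.1 cells).

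The cytokines themselves were mostly not seen: of 21 with a probe, 15 were not well above background on either array, among them IL2, IL4, IL15 and IL21, ligands of receptors that signal through JAK3. The 6 measured ones had a median of 0.21. Past the threshold, 2 of the 6 were higher in R80C cells and 1 was lower. Over all measured named genes these shares were 2.73% and 4.44%. As only 6 of the 21 were measured on both arrays, nothing is read from these counts. IL13, a type 2 cytokine, read 23.1 in R80C cells and 14.8 in H2A.Z.1 cells (0.67), and CSF3 20.9 in R80C cells and 16.5 in H2A.Z.1 cells (0.37). IFNG, interferon-gamma, read 8.44 in R80C cells and 10.8 in H2A.Z.1 cells (-0.33 over 2 probes), and CNTF, a neurotrophic cytokine, was at 0.0056. All 3 of the cytokines past the threshold had signals of 23.1 or less in R80C cells and 16.5 or less in H2A.Z.1 cells, not far above the lowest signal well above background (5.81 for R80C and 6.95 for H2A.Z.1). In the normexp setting they lay within it, IL13 at 0.19, CSF3 at 0.095 and IFNG at 0.0034, on the other side of 0. With no filter on dim probes the median over the 21 cytokines was -0.22. As 15 of these 21 were not well above background on either array, that median describes mostly background signal.

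**Figure D5:**
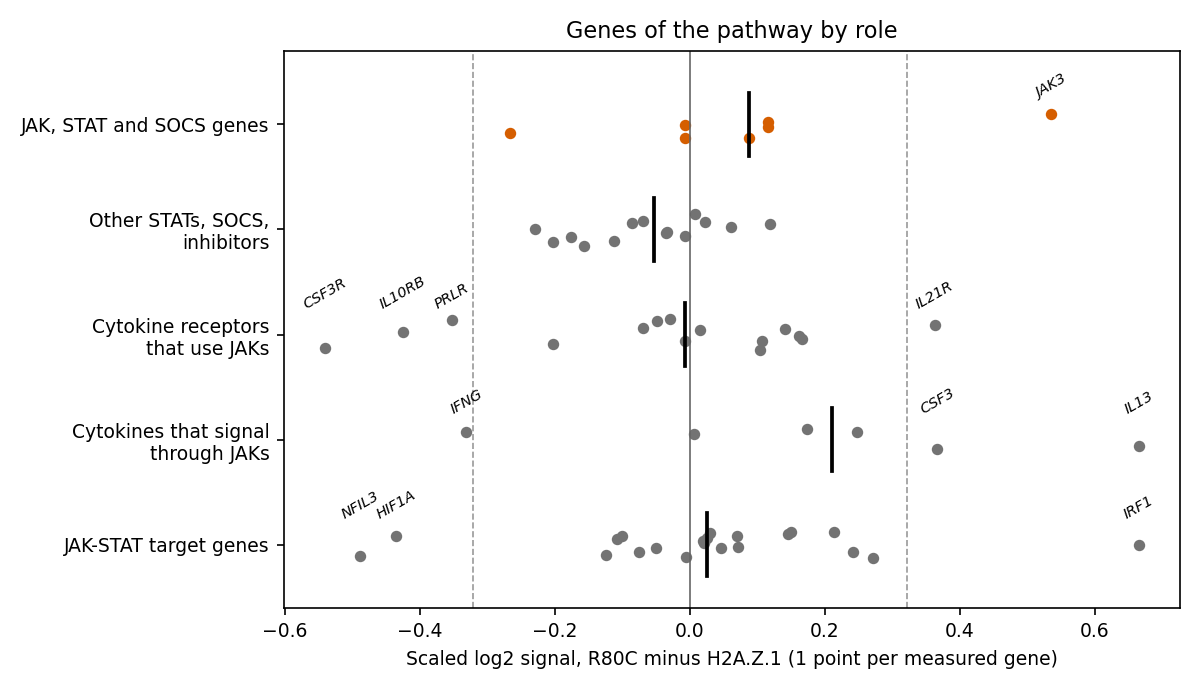
Difference (log2, R80C minus H2A.Z.1) of each measured gene of 5 lists, with the list median as a black bar, dashed lines at 25% higher and 20% lower, and names on genes past them. Outside the JAK, STAT and SOCS genes in orange, the named points are IL21R, CSF3R, IL10RB, PRLR, IL13, CSF3, IFNG, IRF1, NFIL3 and HIF1A, and vertical scatter within a row has no meaning.

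Genes known as targets of the pathway in mammals were measured for 21 of 27 with a probe, 13 above 0 and 8 below, with a median of 0.025. At least 25% higher in R80C cells was 1 of the 21 and at least 20% lower were 2, against 2.73% and 4.44% of all measured named genes. The higher one was IRF1, a transcription factor of the interferon response, at 28.2 in R80C cells and 18.2 in H2A.Z.1 cells (0.67), or 0.21 in the normexp setting. Its second probe was above background in R80C cells alone (12.9 in R80C cells and 5.13 in H2A.Z.1 cells). With the H2A.Z.1 spot set to the lowest signal well above background it was 1.89-fold higher in R80C cells, spot error left out. CCND1, cyclin D1, followed at 0.27, with both of its probes between 0.26 and 0.28 (3683 in R80C cells and 3117 in H2A.Z.1 cells). The lower ones were NFIL3, a transcription factor induced by IL-3 in mammals (10.9 in R80C cells and 15.5 in H2A.Z.1 cells, -0.49 on 1 probe), which stood at 0.022 in the normexp setting, and HIF1A, the hypoxia factor, at -0.44 over 7 probes and -0.27 in the normexp setting. MX1, an antiviral interferon target, was not well above background on either array, and the lists overlap, since CISH and SOCS2 stand on the inhibitor list too.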

How the data were processed

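Cy3-labelled RNA of 1 culture per group was read on 1-colour Agilent chicken arrays, per the labels' protocols. The deposited scanner files hold spot intensity from Agilent Feature Extraction, version 11.5.1.1 (protocol GE1_1105_Oct12, galGal3 grid), per the file headers. This software had subtracted the background and detrended the processed intensity of each array, with no scaling to the other array. An error per spot and flags of 0 or 1 stand beside it, per the file headers. The deposited series matrix holds the same linear intensity times about 1.51 (R80C) and 1.50 (H2A.Z.1), with column medians of 125 (R80C) and 130 (H2A.Z.1), neither log-transformed nor centred. The basis of its factor stays unknown.

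Each array was divided by its 75th percentile and log2 taken. Repeated spots were averaged per probe. Measured probes were those flagged well above background on the 2 arrays without an outlier flag (30199 of 43603, 69.3%), and gene values are means of measured probes. Gene signals are geometric means over measured probes. A probe above background on 1 array gave a lower bound, its value there minus the dim value or the array's lowest detected value, whichever was higher. Spot error does not enter this bound, so the true difference may be smaller. RefSeq accessions without versions matched 11935 of 13060 such probes to symbols of a GRCg7b table, used for names and gene order only, since the grid is of another build.

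The 7 members with a probe were described by rule, with the 5 genes nearest to JAK3 and SOCS3, and per list the 2 highest, the 2 lowest and any gene past 1.5-fold. Other genes, among them partners of JAK3, were named with their values in view. The members and lists were chosen with earlier results of these data known. Alternatives were 4 other scalings, normexp (offset 50, on the median spot brightness, since the files hold no mean) followed by quantile normalization, the series matrix, 2 detection rules and 2 probe rules. Quantile, loess and normexp steps used limma 3.58.1 in R 4.3.3, and other steps Python 3.11.15. Scaling and averaging over spots and probes were tested on simulated data with planted shifts larger than that of JAK3. The detection filter, thresholds, bounds and alternative settings were not part of that test. The number of arrays limits the precision. The values of 1 listed gene are not reported here.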

Additional observations from a re-analysis of the deposited data

How the results depend on the processing

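No paired analysis was possible because each group holds 1 array, and for the same reason no replicate could be left out. JAK3 was the only member at least 25% higher, and no member was at least 20% lower, under the main setting and all 10 alternatives. Several alternatives could hardly move JAK3, which was chosen for its high difference. It has 1 measured probe, so both probe rules return its main value. The series matrix holds the same intensities times a factor, and median or spike-in scaling shifts every gene alike. With no filter on dim probes, and likewise with the positive and significant flag, the second JAK3 probe entered the mean, and the gene stood at 0.42, or 0.38 above the median of the other members, against 0.54 and 0.50 in the main setting. The median of the members lay between 0.064 and 0.12. The normexp setting started from the raw median spot brightness, corrected it with an offset of 50 and then quantile-normalized the arrays, so these 3 changes cannot be told apart in it. JAK2 stood at -0.10 there and at -0.073 with its brightest probe, and SOCS3 at -0.11 with its brightest probe. The normexp setting turned the sign of IFNG (0.0034) and NFIL3 (0.022). It also turned that of the members STAT4 (0.015) and SOCS3 (0.039), which were near 0 in the main setting. This setting left 0 receptors, 0 cytokines and 0 targets past these thresholds in either direction. Its offset draws the differences of dim genes toward 0 whatever their true size, so nothing is read from these counts for such genes. Of all 4326 named genes measured in the main setting, 118 (2.73%) were higher and 192 (4.44%) lower by these thresholds. In the normexp setting 34 (0.786%) and 59 (1.36%) of the same number were. With no filter 317 (5.89%) were higher and 420 (7.80%) lower of 5382 genes. With the positive and significant flag 300 (6.26%) were higher and 345 (7.19%) lower of 4796. Among targets the 2 lower genes of 21 became 6 of 27 with no filter and 4 of 23 with that flag. Among cytokines the 1 lower gene of 6 became 4 of 21 and 3 of 11, or 0 of 6 with array median scaling or the brightest probe. The 1 higher receptor of 15 became 2 of 23 with no filter and 2 of 19 with that flag. The 1 higher target of 21 became 2 of 23 with that flag. Of the other STATs, SOCS genes and inhibitors, 0 of 14 past a threshold became 1 of 16 lower under both detection rules, and 1 of 16 higher with that flag. Under both rules more genes were measured and the shares over all named genes rose too, so nothing is read from these rises. The 1 lower B cell kinase became 0 in the normexp setting. Signal over background limits the receptors and cytokines, most of which were dim.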

Other observations

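Among 9 other tyrosine kinase genes of B cells with a probe, 8 were measured, 4 above 0 and 4 below, with a median of -0.0047. TEC differed by -0.46 (17.7 in R80C cells and 24.8 in H2A.Z.1 cells, 1 measured probe), or by -0.042 with normexp background correction and quantile normalization. It was the only one of the 8 at least 25% higher or 20% lower in the main setting. Over all measured named genes 2.73% were higher and 4.44% lower by these thresholds, and 55.6% lay above 0. A second TEC probe was above background in H2A.Z.1 cells alone, at least 1.85-fold lower in R80C cells. SYK, the kinase that starts B cell receptor signalling, stood at -0.19 at each of 2 probes (970 in R80C cells and 1128 in H2A.Z.1 cells), and BTK, which acts below it, at 0.073. FYN, a Src family kinase, was second lowest at -0.22 on 1 probe (13.9 in R80C cells and 16.5 in H2A.Z.1 cells), or -0.065 in the normexp setting. FGR was the most positive at 0.24 (22.4 in R80C cells and 19.4 in H2A.Z.1 cells, 1 measured probe). It stood at 0.075 in the normexp setting and at 0.067 under both detection rules. LYN, the main Src family kinase of B cells, lay at -0.029.

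The nearest measured genes along the chromosome, 3 on each side in the order of the naming table, did not share the value of JAK3. They were RPS15 (0.018), APC2 (-0.0090) and SGTA (-0.11) on one side, and OCLN (0.084), DDA1 (0.042) and GATAD2A (0.20) on the other, with a median of 0.030. The 6 neighbours of JAK2 lay between -0.054 and 0.11. The table is of another genome build than the array, so neighbours may differ in the build of the design.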
